A study of Mus musculus with 14 samples.

Results

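The 10 genes described here encode calcium-calmodulin dependent protein kinases (Camk2a, Camk2b, Camk2d, Camk2g, Camk4), the kinases that activate some of them (Camkk1, Camkk2), a kinase-like protein of the same family (Camkv), and catalytic subunits of the phosphatase calcineurin (Ppp3ca, Ppp3cb). They were chosen by symbol out of 24444 genes, and all 10 passed the filter on low values in each of 2 tables. Polyadenylated RNA of whole mouse cortex was measured in 14 libraries. The miR29Nestin mice (3 libraries, P40) carried floxed alleles of both miR-29 clusters, miR-29a/b1 and miR-29b2/c, deleted with Nestin-Cre, which acts in neural progenitors and so in the neurons and glia that come from them. Their controls were miR29WT mice (3 libraries, P40), and the labels do not say whether these carried floxed alleles or Cre. The Dnmt3a-mi5 mice (4 libraries, 4.5 months) carried a CRISPR/Cas9 knock-in in which 5 miR-29 sites of the Dnmt3a 3′ UTR were mutated, and their controls were Dnmt3a-WT mice (4 libraries, 4.5 months). The labels give each library as its own replicate without saying how animals were sampled, so p-values measure the spread between these libraries.

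Calcium entering a neuron binds calmodulin, which then switches on both arms of this pathway. CaMKII is a holoenzyme built mainly of the alpha and beta subunits in forebrain and is abundant at excitatory synapses, where it is needed for long-term potentiation; CaMKIV works in the nucleus, downstream of the CaMK kinases, and phosphorylates the transcription factor CREB. Calcineurin removes phosphate from synaptic and cytoplasmic proteins, among them the NFAT transcription factors, and is needed for long-term depression. The study concerns miR-29 and one of its targets, the DNA methyltransferase gene Dnmt3a. The mature miR-29 RNAs are shown because their shared seed, bases 2 to 8 in capitals, is what sites in the 10 genes were searched for (RefSeq, GRCm38.p6).
mmu-miR-29a-3p: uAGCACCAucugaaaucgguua
mmu-miR-29b-3p: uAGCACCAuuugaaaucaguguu
mmu-miR-29c-3p: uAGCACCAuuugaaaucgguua

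The motif searched was the reverse complement of that seed, TGGTGCT, on the sense strand of the longest annotated 3′ UTR of each gene. It occurred in Camk2b and Camk2g, so in 2 of the 10 genes, and in no longest 3′ UTR of the other 8. Among tested genes with an annotated 3′ UTR, 16.7% held the motif in the miR29 table and 17.0% in the Dnmt3a table. The Camk2b match lies at chr11:5970482-5970488, and the 2 Camk2g matches at chr14:20736165-20736171 and chr14:20735304-20735310, all on the minus strand of GRCm38. Each is shown 5′ to 3′ in a window of 30 bases, with the match in capitals. None of the 3 was followed by an A.
Camk2b: caagggcccagTGGTGCTcctaggtgccgg
Camk2g, first: aggaagagaatTGGTGCTgcagaagtgtgt
Camk2g, second: cgcatgggtgcTGGTGCTtgaatttagcca
A match is a description of these letters only. Both genes are referred to again beside their values below.

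Some facts about the libraries touch the values that follow. Dnmt3a, as normalised counts, stood at 5275, 5452 and 5859 in the miR29Nestin libraries, against 1724, 1658 and 1605 in the miR29WT libraries (limma, adjusted p = 8.2e-08), and at 1948 to 2249 in Dnmt3a-mi5 libraries, against 1062 to 1234 in Dnmt3a-WT libraries (adjusted p = 0.000624). The genes of the miR-29 precursors were listed at 0 in every library, so they check nothing. Depth recovered for the miR29 table was 9.20 to 14.4 M reads per library; for the Dnmt3a table it is unknown, and its libraries carry numbers here by column order only. None of the genes of 10 marker lists was at 0 in every library of a table, and the defining markers of cortical neurons and glia were present. Markers of excitatory cortical neurons summed to 20600 to 22877 normalised counts in miR29Nestin libraries, against 26107 to 27282 in miR29WT libraries, with 4 of 7 genes lower and 0 higher. In the Dnmt3a table they summed to 20350 to 22720 in Dnmt3a-mi5 libraries, against 23014 to 23675 in Dnmt3a-WT libraries, with 0 of 7 called. Markers of neurons in general summed to 82864 to 84774 in miR29Nestin libraries, against 81898 to 88112 in miR29WT libraries, with 1 of 5 genes higher and 1 lower. Those of astrocytes summed to 14110 to 14548 in miR29Nestin libraries, against 12864 to 13543 in miR29WT libraries, with 3 of 6 higher and 1 lower. Markers of interneurons summed to 10669 to 11725 in miR29Nestin libraries, against 10786 to 11613 in miR29WT libraries. Of these 6 genes 2 were higher (Pvalb, Gad1) and 2 lower (Gad2, Sst). For oligodendrocytes the sums were 103728 to 115825 in miR29Nestin libraries, against 95224 to 105921 in miR29WT libraries, with 2 of 6 higher and 0 lower. Markers of oligodendrocyte precursors summed to 2666 to 2916 in miR29Nestin libraries, against 2037 to 2449 in miR29WT libraries, with 2 of 3 higher, and those of leptomeningeal fibroblasts to 9226 to 10344 in miR29Nestin libraries, against 4354 to 7232 in miR29WT libraries, with 2 of 4 tested genes higher. Markers of microglia summed to 3223 to 3617 in Dnmt3a-mi5 libraries, against 3703 to 3890 in Dnmt3a-WT libraries, with 2 of 6 lower, and those of endothelium to 695 to 831 in Dnmt3a-mi5 libraries, against 567 to 690 in Dnmt3a-WT libraries, with 1 of 4 higher. Markers of striatal projection neurons varied between libraries of the same group, at 3322 to 8616 in miR29Nestin, against 4759 to 8175 in miR29WT, and at 4508 to 9595 in Dnmt3a-mi5, against 3743 to 6631 in Dnmt3a-WT, with 0 of 6 called in either table. Y-linked reads were found in 1 of 3 miR29Nestin and 2 of 3 miR29WT libraries; with a sex term 5 of the 10 genes were called, as without it. Fewer cells of a type and less RNA per cell cannot be told apart in such bulk samples, and the part of these marker levels in the results below was not tested.

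Per kilobase of the longest coding transcript, Camk2a had the highest level of the 10 genes in all 4 groups and Camk2d the lowest. In miR29Nestin cortex Camk2a averaged 8847 ± 265 normalised counts per kilobase, against 9906 ± 1095 in miR29WT cortex (SD, n = 3 each). Camk2b came next in both P40 groups, at 2766 ± 108 in miR29Nestin, against 3171 ± 110.1 in miR29WT, and was followed by Ppp3ca at 2177 ± 181 in miR29Nestin, against 2535 ± 169.8 in miR29WT. These 3 genes were separated from each other and from all others without overlap of libraries. Below them in miR29WT cortex came Camkv (1935), Camk4 (1504), Camk2g (1245), Camkk2 (1129), Ppp3cb (767), Camkk1 (523) and Camk2d (171), all as counts per kilobase, and among these neighbours only Camk2g and Camkk2 overlapped. In miR29Nestin cortex the order was the same except that Camk4 (1647) averaged above Camkv (1486), and these 2 overlapped. In the 4.5-month groups, which were normalised and prepared separately, Ppp3ca stood above Camk2b, with 3401 for Ppp3ca and 2736 for Camk2b per kilobase in Dnmt3a-mi5, and 3703 for Ppp3ca and 2628 for Camk2b in Dnmt3a-WT. There Ppp3cb, Camk2g and Camkk2 lay close together: Ppp3cb overlapped Camk2g in both groups, as Camkv and Camk4 did, and Camk2g overlapped Camkk2 in Dnmt3a-WT.

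**Figure D1:**
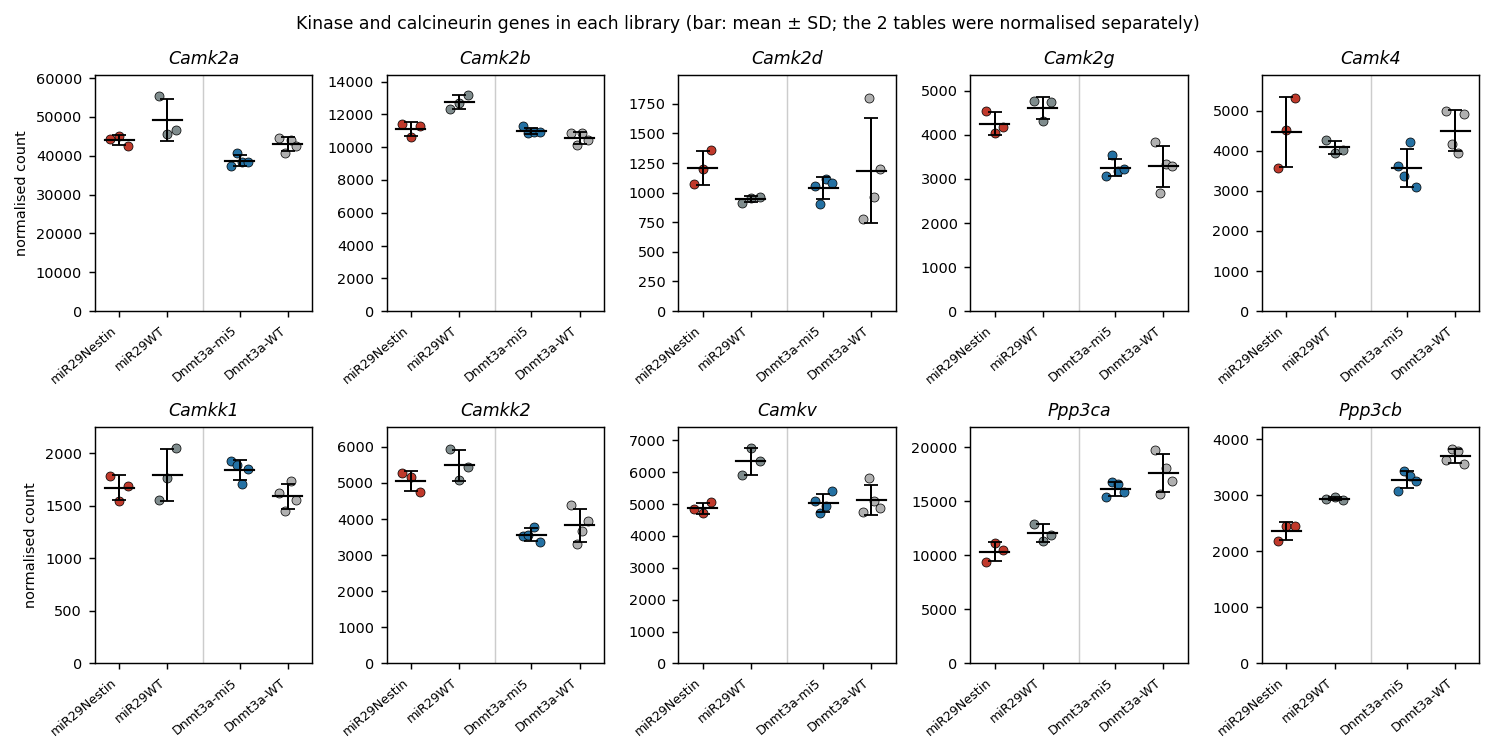
Normalised count (linear axis from 0) of each of the 10 genes in each library, with miR29Nestin, miR29WT, Dnmt3a-mi5 and Dnmt3a-WT from left to right; points are libraries and bars the mean ± SD. Camkv and Ppp3cb libraries of miR29Nestin all sit under those of miR29WT, and Camk2d libraries all sit over them.

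Loss of miR-29 in neural cells went with lower RNA of the CaMKII beta subunit, of Camkv and of both calcineurin genes listed, and with higher Camk2d. Relative to miR29WT, 4 of the 10 genes fell (Camkv, Ppp3cb, Ppp3ca, Camk2b) and 1 rose (Camk2d), where 19.1% of the 12014 tested genes were called at an adjusted p under 0.05 (limma, Benjamini-Hochberg), 10% lower and 9.02% higher. The changes were moderate: the called genes stood at 0.768 to 1.28 times their miR29WT mean. The groups did not overlap for 6 of the 10 genes, against 37.3% of tested genes. The median log2 difference was -0.13 over the 10 genes and -0.0052 over all tested genes. With 3 libraries against 3 an exact permutation test cannot go below p = 0.1, so the calls rest on the spread that limma pools across genes.

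Among CaMKII subunits, Camk2a had 44345, 45059 and 42508 normalised counts in the miR29Nestin libraries, against 55497, 45632 and 46573 in the miR29WT libraries. All miR29Nestin libraries were below all miR29WT libraries, but miR29WT 2 and 3 were close to them and miR29WT 1 stood well above. The log2 difference was -0.16 ± 0.065 (SE), with an adjusted p of 0.118; with the replicate number as a block it was 0.0397, and without miR29WT 1 the difference was -0.07. Camk2b, which carries 1 of the seed matches above, had 11439, 10631.5 and 11314 normalised counts in miR29Nestin, against 12329, 12724 and 13213 in miR29WT. The groups did not overlap, and Camk2b fell by 0.19 ± 0.046 on the log2 scale (adjusted p = 0.0138).

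Camk2d, a CaMKII subunit better known from heart, had 1069.6, 1196 and 1362 normalised counts in miR29Nestin, against 917, 952.5 and 962 in miR29WT. Its miR29Nestin libraries were spread more widely than its miR29WT libraries and were all higher. Camk2d rose by 0.30 ± 0.073 on the log2 scale (adjusted p = 0.0155), and was the 1 gene of the 10 that rose. Camk2g, with 2 seed matches, had 4546.5, 4045 and 4184 normalised counts in miR29Nestin, against 4764, 4312 and 4749.7 in miR29WT. The groups overlapped and the difference of -0.11 ± 0.058 did not pass (adjusted p = 0.217). As shares of all CaMKII counts per kilobase of the longest coding transcript, Camk2a took 68.1 ± 1.33% in miR29Nestin, against 68.2 ± 2.59% in miR29WT. On the same measure Camk2d took 1.69 ± 0.234% in the miR29Nestin libraries and 1.18 ± 0.11% in the miR29WT libraries (SD, n = 3 each for both genes).

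Camk4 had 3569.9, 4528.5 and 5330.2 normalised counts in miR29Nestin, against 4277, 3953 and 4033 in miR29WT. The miR29Nestin libraries lay on both sides of the miR29WT libraries, and the log2 difference of 0.11 ± 0.11 did not pass (adjusted p = 0.525). It turned to -0.02 without miR29Nestin 3 and reached 0.26 (adjusted p = 0.0281) without miR29Nestin 1. The summed striatal markers of miR29Nestin 1, 2 and 3 were 3322, 5788 and 8616, in the same order as Camk4. Those of miR29WT 1, 2 and 3 were 4759, 7111 and 8175, in another order. In miR29Nestin 1, 2 and 3 the summed markers of excitatory neurons (22877, 21992 and 20600) and oligodendrocytes (115825, 108437 and 103728) ran in the reverse order. The striatal markers were thus not the only ones ordered with or against Camk4, and no such link was tested.

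The upstream kinases did not pass. Camkk1 had 1779, 1543 and 1689.8 normalised counts in miR29Nestin, against 1557, 1761 and 2054 in miR29WT (log2 difference -0.09 ± 0.085, adjusted p = 0.528). Camkk2 had 5279.6, 5156 and 4754 in miR29Nestin, against 5937, 5090.1 and 5434 in miR29WT (-0.11 ± 0.062, adjusted p = 0.243). Both overlapped between groups. Their 95% confidence intervals, -0.27 to 0.10 for Camkk1 and -0.25 to 0.03 for Camkk2, still hold log2 differences as large as that of Camk2b.

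Camkv, a synaptic protein that resembles CaM kinases but lacks kinase activity, showed the lowest p of the 10. It had 4849, 4706 and 5051.5 normalised counts in miR29Nestin, against 5911, 6770.0 and 6342 in miR29WT. The lowest miR29WT library was well above the highest miR29Nestin library. Camkv fell by 0.37 ± 0.055 on the log2 scale, with a 95% interval of -0.49 to -0.25 and an adjusted p of 0.0012.

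Both calcineurin genes fell. Ppp3ca, the alpha catalytic subunit that dominates in brain, had 9417, 11109 and 10542 normalised counts in miR29Nestin, against 12941, 11351 and 11896 in miR29WT. The groups did not overlap, though miR29Nestin 2 and miR29WT 2 were only narrowly apart. Ppp3ca fell by 0.22 ± 0.065 on the log2 scale (adjusted p = 0.0400). Ppp3cb, the beta catalytic subunit, had 2184, 2452 and 2458.5 normalised counts in miR29Nestin, against 2932.5, 2973 and 2908 in miR29WT. Its miR29WT libraries were nearly equal and all higher. Ppp3cb fell by 0.29 ± 0.054 on the log2 scale (adjusted p = 0.00398). Of the counts per kilobase of the catalytic subunits (Ppp3ca, Ppp3cb and Ppp3cc), the beta gene made up 20.8 ± 0.388% in miR29Nestin libraries. In miR29WT libraries it made up 22.2 ± 1.21% (SD, n = 3 in each group).

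Camkv and Ppp3cb kept their calls whichever library was left out. The calls of Camk2b, Camk2d and Ppp3ca were each lost without some library: Camk2b without miR29Nestin 2, miR29WT 2 or miR29WT 3 (adjusted p 0.0649, 0.0511 and 0.0699), Camk2d without miR29Nestin 2 or miR29WT 2 (0.0531 and 0.0538), and Ppp3ca without miR29Nestin 1, miR29WT 1, miR29WT 2 or miR29WT 3 (0.105, 0.123, just over 0.05 and 0.0916). After quantile normalisation the log2 differences of Camk2b and Ppp3ca were -0.10 and -0.16 and their calls were lost (adjusted p = 0.178 and 0.105). With no filter on low values, so with all 24444 genes in the fit, none of the 10 passed, and the 5 genes above had adjusted p between 0.0518 for Camkv and 0.285 for Ppp3ca.

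**Figure D2:**
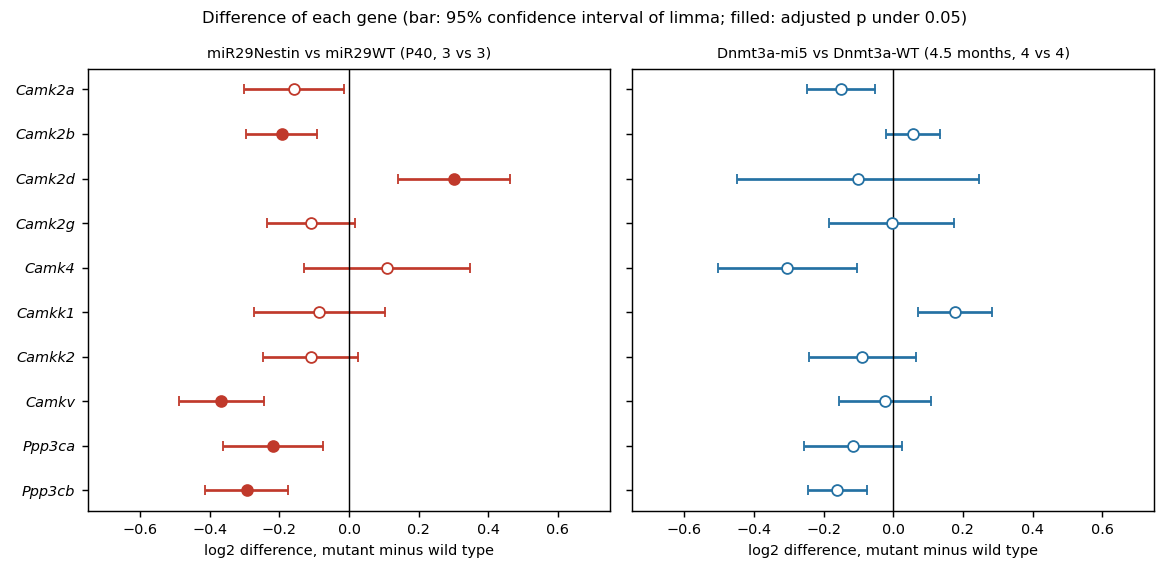
Log2 difference, mutant minus wild type, of each gene in the miR29 table (left) and the Dnmt3a table (right), with the 95% confidence interval of limma; filled points have an adjusted p under 0.05. In miR29Nestin cortex Camk2d lies at 0.30 and Camkv at -0.37, and no point of the Dnmt3a-mi5 panel is filled.

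Of 44 other genes of the pathway, in 6 lists, 42 were tested in the miR29 table and 12 of these (28.6%) were called, 3 higher and 9 lower, where the background was 19.1%; their median log2 difference was -0.09. All 6 calmodulins and calmodulin buffers were called. Of the genes that encode calmodulin itself, Calm2 fell by 0.20 ± 0.041 on the log2 scale (adjusted p = 0.0068), while Calm3 rose by 0.14 ± 0.041 (adjusted p = 0.0393). Calm3 carries a seed match in its longest 3′ UTR, followed by an A. Cask, which fell, and Ppm1e, which did not pass (both below), carry 1 match each, not followed by an A. Akap5, also with a match followed by an A, did not pass (log2 difference -0.09). Further pathway genes with a match, among them Camk1d, Creb1 and Nfatc2, were not called either. The call of Calm3 was lost without any library other than miR29Nestin 3. Nrgn and Gap43, which bind calmodulin in its calcium-free form at post- and presynaptic sites, fell by 0.30 ± 0.066 and 0.28 ± 0.067 (adjusted p = 0.0108 and 0.0153), and Pcp4, a further calmodulin-binding peptide, rose by 0.22 ± 0.044 (adjusted p = 0.00575). The call of Gap43 was lost without miR29WT 2 (adjusted p = 0.0622). With no filter on low values 5 of the 12 pathway genes kept their call, among them Camk2n1, Ppp1r1a, Cask and Pcp4. Calm3, Nrgn and Gap43 were named after their values were seen, because the whole list was called.

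The CaMKII inhibitor gene Camk2n1 gave the lowest p among these 42 genes. It had 17733, 16506 and 16064 normalised counts in miR29Nestin, against 28191, 25728 and 25356 in miR29WT. The groups were far apart relative to their spread, and Camk2n1 fell by 0.65 ± 0.052 on the log2 scale (adjusted p = 2.8e-05); it was called under every alternative. The other inhibitor gene, Camk2n2, was close to level, with 1445 ± 107 normalised counts for miR29Nestin and 1443 ± 139.9 for miR29WT (SD, n = 3 each; adjusted p = 0.982). Ppm1e and Ppm1f, which encode phosphatases that inactivate CaM kinases, did not pass (log2 differences -0.13 and -0.10).

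Among 8 other calcium-calmodulin kinases 1 rose and 1 fell. Cask, a synaptic scaffold with a CaM kinase domain, fell by 0.29 ± 0.055 on the log2 scale (adjusted p = 0.00429), and Pnck, a kinase of the CaMKI group, rose by 0.28 ± 0.059 (adjusted p = 0.00835). Mylk had a log2 difference of 0.24 and an adjusted p of 0.0809, and of 0.0271 with the replicate block. Of 7 other calcineurin genes tested, the inhibitor gene Rcan1 fell by 0.17 ± 0.054 (adjusted p = 0.0486), a call lost with a sex term (0.0591) and without any library other than miR29Nestin 3; the regulatory subunit gene Ppp3r1 differed by -0.05 ± 0.050 (adjusted p = 0.515). None of 9 transcription factor and coactivator genes passed in limma, with 1 at an unadjusted p under 0.05 (Crebbp, log2 difference -0.19). Among 8 genes of synaptic substrates 2 fell, and of these Ppp1r1a, an inhibitor of protein phosphatase 1 that calcineurin dephosphorylates, fell by 0.56 ± 0.057 (adjusted p = 0.000112). Map2 had a log2 difference of -0.24 and an adjusted p of 0.0631, and of 0.0155 with the replicate block.

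**Figure D3:**
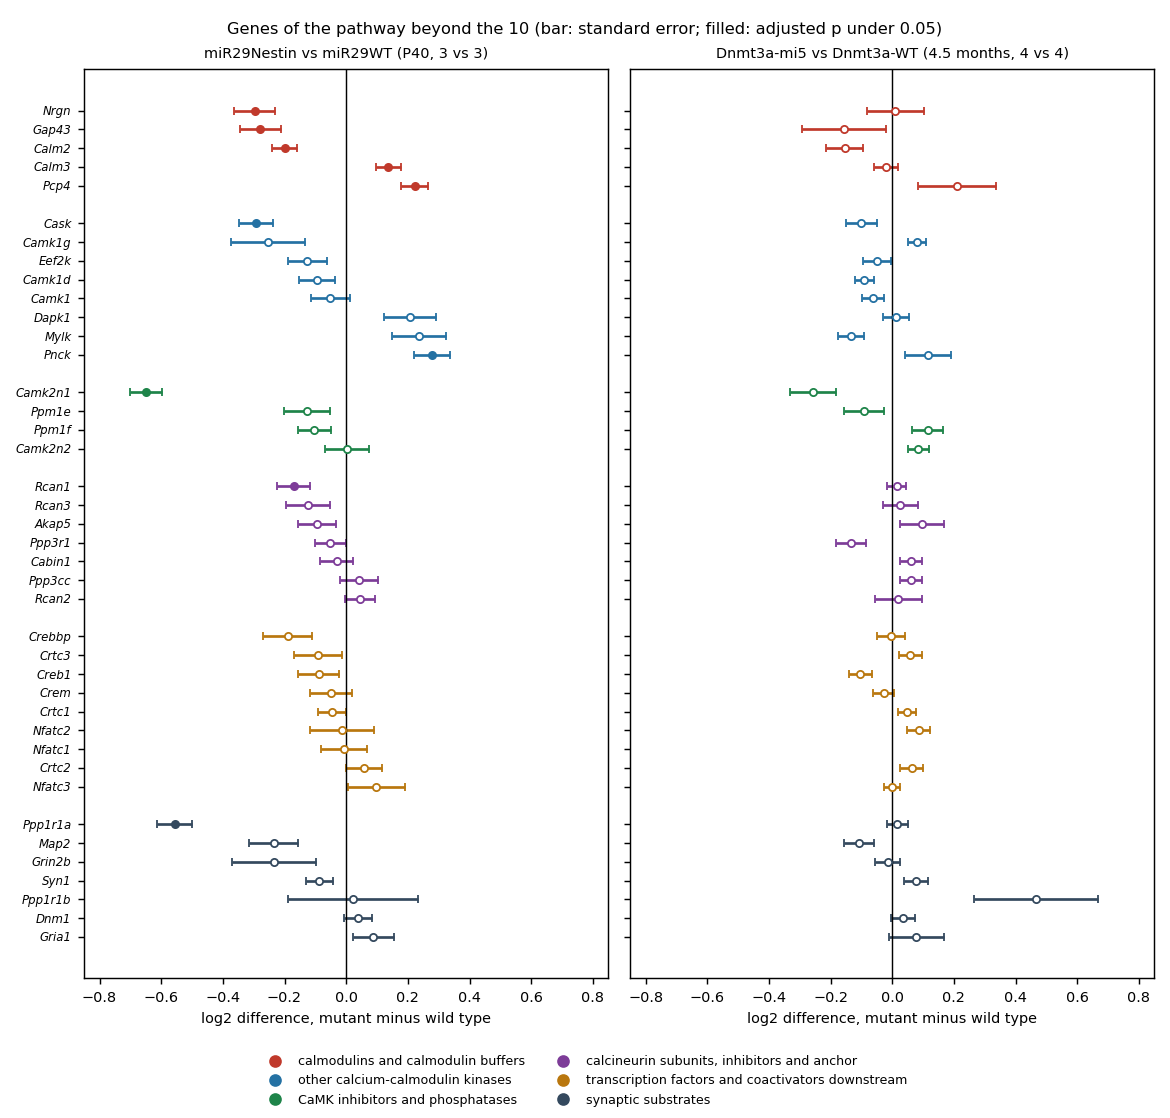
Log2 difference, mutant minus wild type, with its standard error, of other pathway genes grouped by list, in the miR29 table (left) and the Dnmt3a table (right); filled points have an adjusted p under 0.05. Camk2n1 lies at -0.65 in the left panel and at -0.26 in the right, and no point of the right panel is filled.

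In Dnmt3a-mi5 cortex no gene of the 10 was called against Dnmt3a-WT, where 0.797% of the 10670 tested genes (85 genes) were. In the same limma fit 4 of the 10 had an unadjusted p under 0.05, as had 19% of tested genes. The groups did not overlap for 3 genes, Camk2a, Camk2b and Ppp3cb, against 12% of tested genes, and each of these 3 gave an exact permutation p of 0.0286, the smallest that 4 libraries against 4 allow over all assignments. The median log2 difference was -0.10 over the 10 genes and 0.0018 over all tested genes. An additive effect with 2 levels had been removed from this table before it was deposited, and each level holds 2 libraries of each group (libraries 1 and 2, and libraries 3 and 4). With assignments balanced over these 2 sets the exact permutation p of Camk2a, Camk2b and Ppp3cb was 0.0556, the smallest that this allows. The main limma fit did not count the removed effect, so its standard errors and p-values in this table tend to be too small. With the sets as a term 13 genes were called instead of 85. An unadjusted p under 0.05 was then reached by 1571 genes instead of 2025. Differences within the sets are given below beside the main ones.

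Camk2a had 37297, 40663, 38327 and 38427 normalised counts in Dnmt3a-mi5, against 44616, 40775, 44141 and 42439.7 in Dnmt3a-WT. Dnmt3a-mi5 2 and Dnmt3a-WT 2 were nearly equal and the rest were apart. The log2 difference was -0.15 ± 0.044 (adjusted p = 0.112), at -0.13 and -0.17 within the 2 sets, and turned to 0.04 after quantile normalisation. Camk2b had 11297, 10892, 10937 and 10903 normalised counts in Dnmt3a-mi5, against 10843, 10135, 10874.5 and 10429.6 in Dnmt3a-WT. Every Dnmt3a-mi5 library was higher, but the distance between the groups was small, and the log2 difference of 0.06 ± 0.035 did not pass (adjusted p = 0.417). It was 0.08 and 0.03 within the sets.

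Camk2d had 1052, 908, 1114 and 1081 normalised counts in Dnmt3a-mi5, against 777, 1797, 963 and 1196 in Dnmt3a-WT. Dnmt3a-WT 2 stood above the other 7 libraries. That library also had the lowest summed oligodendrocyte markers of the 8, at 31549, where the other libraries of both groups had 40687 to 54366. It was also lowest in the sums for neurons in general (62799), interneurons (9274) and endothelium (567), and highest for astrocytes (14363). The log2 difference of -0.10 ± 0.157 (adjusted p = 0.779) became 0.07 without it. Camk2g had 3077, 3545, 3191 and 3220.4 normalised counts in Dnmt3a-mi5, against 3829.5, 2691, 3330.3 and 3297 in Dnmt3a-WT. Its Dnmt3a-WT libraries enclosed all of its Dnmt3a-mi5 libraries, with a log2 difference of -0.0039 ± 0.081 and a 95% interval of -0.18 to 0.18.

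Camk4 had 3633, 3375, 4215 and 3109.8 normalised counts in Dnmt3a-mi5, against 4987, 4174, 3954 and 4919 in Dnmt3a-WT. It overlapped through Dnmt3a-mi5 3 alone. Its log2 difference of -0.30 ± 0.091 was the farthest from 0 of the 10 but did not pass (adjusted p = 0.118), and was -0.35 and -0.26 within the sets. The summed striatal markers of Dnmt3a-mi5 libraries 1 to 4 were 9172, 5663, 9595 and 4508, in the same order as Camk4 there. Those of Dnmt3a-WT libraries 1 to 4 were 5154, 4098, 3743 and 6631, in another order than Camk4. Microglia markers of Dnmt3a-mi5 libraries 1 to 4 (3488, 3240, 3617 and 3223) also had the order of Camk4. Those of leptomeningeal fibroblasts (6898, 9155, 6430 and 9913) had the reverse order.

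Camkk1 had 1924, 1884, 1709.7 and 1853 normalised counts in Dnmt3a-mi5, against 1617, 1453, 1737 and 1552.5 in Dnmt3a-WT. It overlapped narrowly, and the log2 difference of 0.18 ± 0.048 did not pass (adjusted p = 0.0915); it was 0.26 in the first set and 0.10 in the second. Camkk2 had 3539, 3559, 3791 and 3357 normalised counts in Dnmt3a-mi5, against 4399, 3311, 3659.5 and 3945 in Dnmt3a-WT (log2 difference -0.09 ± 0.070, adjusted p = 0.533). Camkv had 5089, 4723.5, 4929 and 5401 in Dnmt3a-mi5, against 4754, 5808, 5103 and 4889 in Dnmt3a-WT. Its groups overlapped almost wholly, and the log2 difference was -0.02 ± 0.060, with a 95% interval of -0.16 to 0.11.

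Ppp3ca had 15448, 16815, 16647 and 15825 normalised counts in Dnmt3a-mi5, against 19764, 15704.5, 18095 and 16919 in Dnmt3a-WT. Its Dnmt3a-WT libraries were spread widely, and the log2 difference of -0.12 ± 0.064 did not pass (adjusted p = 0.362). Ppp3cb had 3076, 3425, 3344 and 3245 normalised counts in Dnmt3a-mi5, against 3632, 3823.5, 3785 and 3564.5 in Dnmt3a-WT. All Dnmt3a-mi5 libraries were lower. The log2 difference of -0.16 ± 0.038 had the lowest adjusted p of the 10 in this table, 0.0734, and was -0.18 and -0.14 within the sets.

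Of the 44 other pathway genes, 41 were tested in the Dnmt3a table and 0 were called, with 12 of 41 at an unadjusted p under 0.05, where 19% of all tested genes were, and a median log2 difference of 0.01. Camk2n1 had 15383, 16208, 17435 and 15092 normalised counts in Dnmt3a-mi5, against 22180.2, 17056, 18386 and 19504 in Dnmt3a-WT. The groups overlapped through Dnmt3a-mi5 3 and Dnmt3a-WT 2, and the log2 difference of -0.26 ± 0.075 had an adjusted p of 0.112; without Dnmt3a-WT 2 it was -0.31, with an adjusted p of 0.0449. Ppp1r1a, which fell in miR29Nestin cortex, had a log2 difference of 0.02 ± 0.034 here (adjusted p = 0.842).

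The balance between the 2 main genes of each enzyme was taken as the difference of their log2 values within a library. The Camk2a to Camk2b difference was 1.69, 1.86, 1.77 and 1.78 in Dnmt3a-mi5, against 2.00, 1.97, 1.98 and 1.99 in Dnmt3a-WT. The Dnmt3a-WT values lay within a narrow range and every Dnmt3a-mi5 value was below them, with means of 1.78 ± 0.071 in Dnmt3a-mi5 and 1.98 ± 0.014 in Dnmt3a-WT (SD, n = 4 each) and a shift of -0.21 (exact permutation test, two-sided, p = 0.0286, the smallest possible; 0.114 after Benjamini-Hochberg adjustment over 4 such tests). It was -0.21 within each set of libraries, and with assignments balanced over the sets, where the smallest possible p is 0.0556, the p was 0.0556. After quantile normalisation the shift was -0.03 (exact p = 0.771), in a table where Camk2a ranks from 3 to 5 among all genes of a library. In shares of CaMKII counts per kilobase, Camk2a took 67.2 ± 0.78% in Dnmt3a-mi5, against 69.9 ± 0.213% in Dnmt3a-WT. Camk2b took 23.6 ± 0.914% in Dnmt3a-mi5, against 21.2 ± 0.189% in Dnmt3a-WT (SD, n = 4 each for both genes).

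The same difference in the miR29 table was 1.94, 2.06 and 1.89 in miR29Nestin, against 2.15, 1.83 and 1.80 in miR29WT. The groups overlapped (shift 0.04, exact p = 0.8, where the smallest possible is 0.1). The Ppp3ca to Ppp3cb difference averaged 2.05 ± 0.045 over the miR29Nestin libraries, against 1.97 ± 0.102 over the miR29WT libraries (SD, n = 3 each; exact p = 0.3), and 2.18 ± 0.016 in Dnmt3a-mi5, against 2.14 ± 0.160 in Dnmt3a-WT (SD, n = 4 each; exact p = 0.6). Both pairs of groups overlapped.

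**Figure D4:**
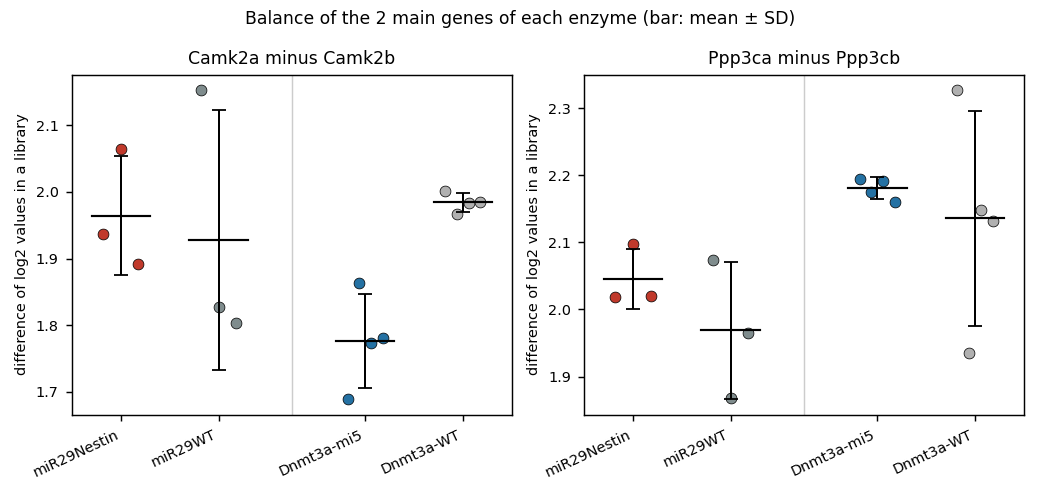
Difference of log2 values within each library, Camk2a minus Camk2b (left) and Ppp3ca minus Ppp3cb (right), for miR29Nestin, miR29WT, Dnmt3a-mi5 and Dnmt3a-WT; points are libraries, bars the mean ± SD, and the axes do not start at 0. In the left panel the Dnmt3a-mi5 libraries (1.69 to 1.86) all lie under the Dnmt3a-WT libraries (1.97 to 2.00).

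Set side by side, the mutant minus wild-type log2 differences of Camk2a were -0.16 in miR29Nestin and -0.15 in Dnmt3a-mi5, and after quantile normalisation -0.06 and 0.04. Those of Ppp3cb were -0.29 and -0.16, and those of Ppp3ca -0.22 and -0.12. Those of Camkv were -0.37 and -0.02, those of Camk2b -0.19 and 0.06, and those of Camk2d 0.30 and -0.10. The models differ in age, kit and table, and no difference between them was tested. By seed match, Camk2b had log2 differences of -0.19 and 0.06 and Camk2g of -0.11 and -0.0039. Tested genes with a match had medians of 0.031 in the miR29 table and -0.009 in the Dnmt3a table. Those without a match had medians of -0.011 in the miR29 table and 0.004 in the Dnmt3a table. Camk2d, Camk4 and Ppp3ca span over 100 kb (250.0, 256.3 and 267.6 kb on GRCm38), as do 16.5% of tested genes of the miR29 table; in miR29Nestin their log2 differences were 0.30, 0.11 and -0.22.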

How the data were processed

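Per the labels' protocols, RNA was extracted with RNeasy for the miR29 mice and with Direct-zol for the Dnmt3a mice, and stranded libraries (TruSeq and KAPA) were sequenced paired-end for 50 cycles. Tools in the submitters' processing notes are STAR, Salmon, cutadapt and DESeq2, with builds mm9 and hg19 and neither versions nor roles. The authors deposited log2 values from the variance-stabilising transformation of DESeq2, 1 table per model; no per-sample column was left out. Normalised counts were recovered by inverting the transformation from each table's zero level; 83.5% to 87.9% of low values of the miR29 table came out within 0.05 of whole reads. The columns of the Dnmt3a table repeat replicate names and so map to groups only.

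Deposited log2 values were tested within each table with limma 3.58.1 (R 4.3.3, mean at least 1 above the lowest value, intensity trend, Benjamini-Hochberg over all tested genes). The fit was run on simulated data first. These had independent libraries and no removed effect, so they could not check the p-values of the Dnmt3a table. Exact permutation tests used scipy 1.17.1. In the miR29 table same-numbered libraries of the 2 groups deviated together (r = 0.335, 0.204 and 0.186, a check of the data). Pairs of unlike number had r from -0.327 to 0.178, so this check does not settle whether the numbers mark pairs. The numbers come from the labels, and a replicate block was run as an alternative. Seed matches and coordinates come from GENCODE annotation of GRCm38, which is not the build named in the notes. All 10 members are named; pathway genes are those among the 3 of lowest p per list and table, and other called ones added after their values were seen. The members and lists were chosen with earlier results of these data known. Values of some pathway genes are not reported here, though the counts over the lists include them.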

Additional observations from a re-analysis of the deposited data

Results flagged for a closer look

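Camk2b was lower in every miR29Nestin library and higher in every Dnmt3a-mi5 library than in the matching wild-type libraries, with log2 differences of -0.194 (miR29Nestin vs miR29WT) and 0.0568 (Dnmt3a-mi5 vs Dnmt3a-WT). The difference between the 2 models was not tested, since their tables were normalised separately, and only that of miR29Nestin passed the threshold.

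Within Dnmt3a-mi5, library 1 had the highest Camk2b, at 11297 normalised counts where the other 3 libraries had 10892 to 10937. Its gap to the nearest library was 0.888 of the range of the group. This was the only outlying value in 24 groups of values checked, all of them in the Dnmt3a table. Chance alone gives about 1 in 20 for independent values, and the effect removed from that table ties its libraries together. The miR29 groups, with 3 libraries each, were not checked.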

How the results depend on the processing

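Of 290 recomputed values of the 10 genes, 259 kept their direction and their side of the threshold. Of 559 recomputed values of named pathway genes 534 did and none changed sign. Both totals include values of genes not called in the main fit, among them all of these genes in the Dnmt3a table. Of the 5 members called in miR29Nestin, with 14 alternatives each, Ppp3ca lost its call in 6 and Camk2b in 5. Camk2d lost its call in 3, and Camkv and Ppp3cb in 1 each. The count of members called in miR29Nestin (5) was 0 with no filter on low values, 3 after quantile normalization (without Camk2b and Ppp3ca), 2 to 5 with 1 library left out, and 6 with the replicate block; the count of pathway genes called (12) was 5 with no filter, 9 to 13 with 1 library left out and 16 with the block. The block raised all called genes to 3037 from 2289 and, besides Camk2a, Mylk and Map2, changed no call of a gene named in the text. In Dnmt3a-mi5 the count of pathway genes was 0 to 1 with 1 library left out, and 0 members were called under every alternative run. No paired analysis was possible because the columns of the Dnmt3a table repeat replicate names; with its library sets as a term 13 genes were called instead of 85. With 1 library left out the Camk2a to Camk2b shift ran from -0.026 to 0.15 in the miR29 table and from -0.24 to -0.18 in the Dnmt3a table (exact p = 0.0571 each there, the smallest possible). In the Dnmt3a table it was -0.034 after quantile normalization and -0.21 with balanced assignments (exact p = 0.0556), an alternative chosen after seeing the data, as were those of the pathway genes. The Ppp3ca to Ppp3cb shift ran from 0.026 to 0.13 in the miR29 table and from -0.022 to 0.11 in the Dnmt3a table.

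Values of some members that were not called changed sign. In the miR29 table, with 1 library left out, Camk4 ran from -0.022 to 0.26 and Camkk1 from -0.17 to 0.0092. In the Dnmt3a table quantile normalization gave 0.043 for Camk2a, whose main value was -0.15 with no overlap of libraries, and 0.0098 for Camk2g. With 1 library left out Camk2g there ran from -0.086 to 0.066, Camkv from -0.058 to 0.031 and Camk2d from -0.24 to 0.075. The no-filter fit tests more genes, and its standard errors differed from those of the main fit at the same log2 differences. In the miR29 table that of Ppp3ca was 0.0848 against 0.0654 in the main fit, and that of Camk2d 0.083 against 0.0729. For Ppp3cb it was smaller, at 0.0493 against 0.0544. The part of each in the lost calls was not tested, nor were other causes. Depth is unknown for the Dnmt3a table, so counting error of its values could not be given.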

Other observations

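Among 12004 other tested genes, the 5 whose deposited values followed Camkv most closely over the 6 libraries of the miR29 table were Lypd1, Cops8, Chst1, Usp27x and Ablim3, with Pearson r of 0.9969, 0.9953, 0.9945, 0.9935 and 0.9925. Lypd1, an inhibitor of nicotinic receptors, had a log2 difference of -0.85 (adjusted p = 0.000205), and the other 4 lay between -0.16 and -0.29. In the Dnmt3a table the 5 closest to Ppp3cb over 8 libraries, among 10660 genes, were Zc3h14, March6, Lcp1, Rps4l and Tmx3, with r of 0.9931, 0.9824, 0.9821, 0.9813 and 0.9812; of these Rps4l was called (log2 difference -0.25, adjusted p = 0.0383). Genes compared over the same libraries share the division into groups, so r is given as a description.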
